A study of Mus musculus with 2 samples.

Results

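Zfp36, Zfp36l1, Zfp36l2, Btg1, Btg2 and Zc3h12a encode proteins that shorten the life of messenger RNAs. They are described here in lymphocyte, myeloid and tumour cells of RM-1 tumours, and against the stress genes that tissue dissociation induces. The 6 genes were taken by their symbols from the 32285 genes listed in each matrix, and each symbol matched 1 row. They were selected on earlier results from these libraries, that is, on their UMI levels by class and library. All levels and ratios below are therefore descriptions of the values that chose them, with no test. RM-1, a mouse prostate cancer line, had been implanted under the skin of wild-type C57BL/6 mice. One group received vehicle and the other RP-6306, an inhibitor of PKMYT1, a kinase that restrains CDK1 before mitosis, and tumours were taken on day 10 of treatment. Leukocytes were sorted by CD45 and then put together with tumour cells in a 3:1 mix, so that the share of tumour cells was set by the mixing. The implants come from 1 cell line. There was 1 library per treatment, and the sources used here do not tell whether each came from 1 mouse, so no test between treatments was possible.

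ZFP36, ZFP36L1 and ZFP36L2 are zinc finger proteins that bind AU-rich elements in the 3' untranslated region (UTR) of cytokine and other short-lived transcripts and bring the CCR4-NOT deadenylase to them. BTG1 and BTG2 have no RNA-binding domain of the zinc finger kind. They link poly(A)-binding protein to the CAF1 deadenylase and speed general poly(A) shortening, and in T cells they are known to hold cells in quiescence. ZC3H12A, also called Regnase-1, is an endonuclease that cuts stem-loops in transcripts of activated immune cells. Zfp36 and Btg2 are also known as immediate early genes, which are induced within minutes by serum, stress or the enzymatic digestion of tissue, and this is why they are set against dissociation stress here.

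AU-rich elements lie in the transcripts of several of these regulators themselves. The core motif TATTTAT, as the DNA strand reads it, occurred 3 times in the longest annotated 3' UTR of Zfp36, of Zfp36l1 and of Zfp36l2, once in that of Btg2, and was not found in those of Btg1 and Zc3h12a. Overlapping copies were counted, on the transcript strand only. As many copies were present in 1.23%, 4.33% and 4.30% of genes with a 3' UTR of like length for the 3 Zfp36 genes, and in 43.4% for Btg2, whose single copy is thus common at its length. Over all lengths at least 1 copy was present in 27.6% of 21037 protein-coding genes, and in 20 of the 26 transcripts listed here as known targets of these proteins. Tnf, the classical target of ZFP36, had 8 copies. The following windows of 27 bases, read from GENCODE transcripts on GRCm38, hold the densest stretch of each, with the motif in capitals, and show how the members' elements compare with that of Tnf.
Zfp36, chr7:28376959-28376985, minus strand: ttTATTTATgacgacttTATTTATtgt
Zfp36l1, chr12:80108423-80108449, minus strand: tatcaaaacgTATTTATtgccaaacta
Zfp36l2, chr17:84184915-84184941, minus strand: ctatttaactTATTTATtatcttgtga
Btg2, chr1:134077250-134077276, minus strand: aatgaagagcTATTTATacatgttttt
Tnf, chr17:35199677-35199703, minus strand: ttatTATTTATTTATTATTTATTTATt
Zfp36 had 2 copies in 1 window, the other 3 regulators had 1, and Tnf had 4 overlapping ones. A match is a description of the sequence and not a measured binding site.

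The promoters of Btg2 and Zfp36 are shown because these were the members with the steepest gradient over immediate early genes within tumour-like cells, given further on. RefSeq starts of GRCm38.p6 were available for 5 of the 6 genes (not Zfp36l2), and the 250 bases before each start were searched on both strands for TGACGTCA (the cyclic AMP response element), TGANTCA (the AP-1 site), the E-box CACGTG, the forkhead site TGTTTAC, the CCAAT box, the TATA box TATAAA, the CArG box (bound by serum response factor) and the NF-kB site. In the sequences the TGACGTCA match of Btg2 and the CArG match of Zfp36 are in capitals.
Btg2, chr1:134079156-134079405, minus strand: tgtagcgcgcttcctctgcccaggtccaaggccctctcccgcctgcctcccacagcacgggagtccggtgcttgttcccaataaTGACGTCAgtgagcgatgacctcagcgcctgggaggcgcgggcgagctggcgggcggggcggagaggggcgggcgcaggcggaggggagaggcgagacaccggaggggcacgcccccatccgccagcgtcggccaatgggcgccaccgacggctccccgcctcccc
Zfp36, chr7:28379229-28379478, minus strand: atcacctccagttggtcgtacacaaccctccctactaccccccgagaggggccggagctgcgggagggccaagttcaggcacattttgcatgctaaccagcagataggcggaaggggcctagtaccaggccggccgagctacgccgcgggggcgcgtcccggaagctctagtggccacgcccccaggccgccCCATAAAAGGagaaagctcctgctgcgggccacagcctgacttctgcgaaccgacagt
The Btg2 match begins 166 bases before the start, and 1.55% of 32851 promoters of the same length hold TGACGTCA. The Zfp36 match begins 58 bases before the start, and 1.47% of promoters hold a CArG box. Neither motif was found in the other 4 member promoters that were searched for it. Among 10 promoters of the immediate early list used further on, 1 held TGACGTCA and 0 held a CArG box. The part of either match in the gradient was not tested. Zfp36l1 had 1 TGANTCA match, as did 6.75% of promoters. None of the 5 windows held the E-box or the NF-kB site, against 6.02% and 7.25%. The forkhead site occurred in Btg1, the CCAAT box in Zfp36l1, Btg1 and Btg2, and the TATA box in Zfp36l1 and Btg1, against 3.17%, 33.8% and 12.4% of promoters.

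The genes lie on 6 chromosomes (GRCm38): Zfp36 (ENSMUSG00000044786) at chr7:28376784-28380253, Zfp36l1 (ENSMUSG00000021127) at chr12:80107754-80113013, Zfp36l2 (ENSMUSG00000045817) at chr17:84183931-84187947, Btg1 (ENSMUSG00000036478) at chr10:96617006-96622809, Btg2 (ENSMUSG00000020423) at chr1:134075170-134079120 and Zc3h12a (ENSMUSG00000042677) at chr4:125118423-125127840. All are protein-coding. Each of the 3 Zfp36 family genes overlaps an annotated gene on the opposite strand (Gm44710, Gm26669 and AC132455.1), and no source used here says whether the counting used the strand, so reads of such a pair could not be told apart. The near-identical copies Btg1-ps1 and Btg1-ps2 had 1 and 0 UMIs (unique molecular identifiers, which count RNA molecules) over both libraries, and the retrogene Zfp36l3 had 0.

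After filtering, the vehicle library held 16082 cells with a median of 3117 UMIs and the RP-6306 library held 14916 cells with a median of 2847 UMIs. Cells were clustered and named "-like" by markers, and 3802 vehicle and 1787 RP-6306 cells stayed unnamed. The largest unnamed clusters were M0 (1377 vehicle and 44 RP-6306 cells of few UMIs), cluster 4 (1074 and 958 cells with B and T cell markers) and T4 (458 and 181 cells led by Ctla4, Gzmb and Il2ra). Of 327 barcodes present in both filtered libraries, 55 were in the same class, against 54.0 expected from the class shares alone. Free tumour RNA, estimated from keratin UMIs in leukocytes, made up 3.34% to 10.5% of each of 7 leukocyte classes in the vehicle library and 2.06% to 6.28% in the RP-6306 library. It could account for at most 11.2% of the level of any of the 6 genes in these 7 classes, the highest being Zfp36 in vehicle CD8 T-like cells. It was not estimated for neutrophil-like cells. Of the 6 genes only Zfp36l1 was among the variable genes used to cluster. Levels are given as CPM, the UMIs of a gene or list scaled to 1000000 UMIs of the class. The marker lists also named the clusters, so their sums describe the classes and are no check on the names. B cell markers summed to 7509 and 7680 CPM in B-like cells and to at most 26.8 in tumour-like cells. Tumour markers summed to 7511 and 8603 in tumour-like cells. Dendritic markers were less set apart, at 1653 and 1659 in dendritic-like cells against 581 and 602 in NK-like cells. Among leukocytes the tumour markers were highest in neutrophil-like cells, at 3542 and 3808, with 6 of the 12 genes detected there.

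The CPM of each member were taken from UMIs summed over the cells of 1 library, with exact Poisson 95% intervals that cover counting error only. Levels are compared across classes for 1 gene and not between genes. The order of classes differed by gene, and each member except Zfp36 was lowest in tumour-like cells in both libraries. Such sums give shares of a class's UMIs and do not separate molecules per cell from the number of expressing cells. Vehicle tumour-like cells had a median of 26257 UMIs and B-like cells 2159. Btg1 was detected in 82.6% of these tumour-like and 69.6% of these B-like cells, and after thinning to 2000 UMIs in 15.4% and 67.5%. A lower level in tumour-like cells is thus a lower share and need not mean fewer molecules per cell.

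Zfp36 was highest in the 3 myeloid classes in both libraries. In the vehicle library its level was 706 (545 to 900) CPM in neutrophil-like cells, 331 (274 to 397) in dendritic-like cells and 327 (307 to 348) in macrophage and monocyte-like cells. In lymphocyte classes of that library it ranged from 94.1 in CD8 T-like to 146 in regulatory T-like cells, and it was 141 in tumour-like cells. The RP-6306 library gave 1362 (1127 to 1631) in neutrophil-like, 397 in dendritic-like and 461 in macrophage and monocyte-like cells. The intervals of dendritic-like and macrophage and monocyte-like cells overlapped in both libraries, and those of neutrophil-like cells lay above all others.

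Btg2 was highest in neutrophil-like cells as well, at 1652 (1400 to 1936) CPM in the vehicle library and 2781 (2441 to 3155) in the RP-6306 library. The next 4 classes of the vehicle library were B-like, CD4 T-like, dendritic-like and macrophage and monocyte-like cells at 353 to 366, with overlapping intervals. Btg2 was lowest in tumour-like cells, at 155 and 166. Zc3h12a had the same end points, with 250 (158 to 375) and 219 (132 to 342) in neutrophil-like cells and 41.0 and 35.1 in tumour-like cells. Between these the Zc3h12a levels of the other 7 classes lay from 80.6 to 132 and each overlapped its neighbour in order. The neutrophil-like values rest on 53 and 46 cells, and with fewer than 50 cells in 1 library no ratio is given for that class. The part of its high tumour marker sums in these levels was not tested.

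Zfp36l1 and Zfp36l2 had their highest levels in different lymphocytes. Zfp36l1, which is known to restrain cell cycle entry during lymphocyte development, was highest in regulatory T-like cells, at 544 (484 to 609) CPM in the vehicle library and 833 (737 to 939) in the RP-6306 library. B-like cells came next at 485 and 722, and the intervals of the 2 classes overlapped. All other classes were at or below 247 in the vehicle library and 346 in the RP-6306 library, and there dendritic-like (247 and 318) and neutrophil-like cells (217 and 346) had higher values than CD4 T-like (200 and 256), CD8 T-like (170 and 239) and NK-like cells (154 and 243). Zfp36l2 was highest in NK-like cells, at 926 (872 to 981) and 1152 (1050 to 1261), above the intervals of every other class. Its T-like classes lay between 522 and 644 in the vehicle library. Macrophage and monocyte-like cells were at 264 and 243, and tumour-like cells at 149 and 155.

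By its share of UMIs, Btg1 separated leukocytes from tumour cells. It was 88.3 (86.3 to 90.3) CPM in vehicle tumour-like cells and 74.6 (73.0 to 76.2) in RP-6306 tumour-like cells. Every leukocyte class held at least 294. In the vehicle library B-like cells (597) and CD4 T-like cells (584) overlapped, and dendritic-like (382) and macrophage and monocyte-like cells (363) overlapped at the low end of the leukocytes. Neutrophil-like cells were again highest, at 934 and 842, where the second value overlapped that of CD4 T-like cells (751).

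**Figure D1:**
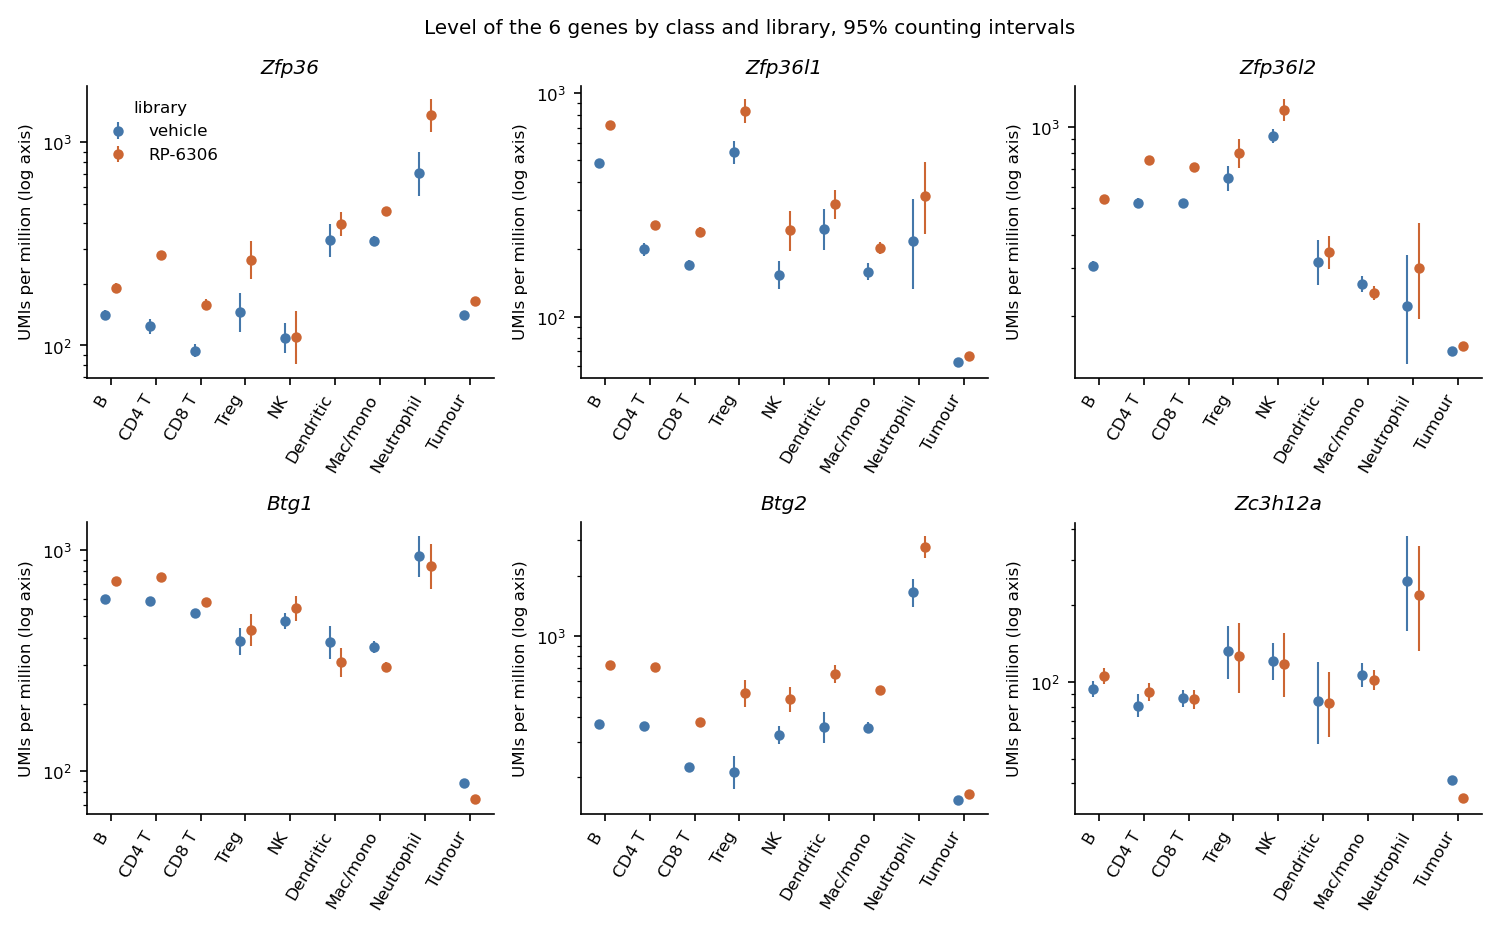
Level of each gene (CPM, log axis) in 9 classes, with 1 point per library (blue vehicle, orange RP-6306) and 95% counting intervals. Zfp36 and Btg2 peak in neutrophil-like cells, Zfp36l2 in NK-like cells (926 and 1152) and Zfp36l1 in regulatory T-like and B-like cells. All but Zfp36 are lowest in tumour-like cells.

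Between the libraries, the 6 genes were mostly higher in RP-6306 lymphocytes. Ratios are log2 of RP-6306 over vehicle levels, each with 1 added, and a ratio is called past the fold at 1.5-fold, which is 0.58 on the log2 scale. In B-like cells all 6 were higher and 2 were past the fold, where 2.29% of 11854 genes with at least 20 UMIs were past it upward and 7.49% downward. CD4 T-like cells had all 6 higher and 2 past the fold (3.91% of genes upward, 7.01% downward), and CD8 T-like cells had 5 higher and 2 past it (2.53% and 5.73%). Regulatory T-like cells had 3 past the fold (12.8% and 13.2%), and NK-like (9.71% and 9.12%), dendritic-like (14.8% and 13.3%) and macrophage and monocyte-like cells (11.9% and 5.4%) had 1 each. None was past the fold in tumour-like cells (1.09% and 1.48%). No member was past the fold downward in any of the 8 classes. Since the members were chosen with these ratios known, the counts describe them and are not evidence about them as a set.

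The median log2 ratio of the 6 genes was 0.51 in B-like, 0.44 in CD4 T-like, 0.46 in CD8 T-like and 0.46 in regulatory T-like cells. It was 0.25 in NK-like, 0.19 in dendritic-like, 0.15 in macrophage and monocyte-like and 0.07 in tumour-like cells. The median over all genes of the same class lay between 0.01 and 0.10. Scaling by median-of-ratios size factors in place of totals shifted all log2 ratios of a class by at most 0.11, in NK-like cells.

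Btg2 had the widest reach. In B-like cells its level was 366 (352 to 379) CPM in the vehicle library and 719 (700 to 739) in the RP-6306 library, a log2 ratio of 0.97 (0.91 to 1.04). In CD4 T-like cells it was 359 and 701, again a log2 ratio of 0.97 (0.89 to 1.05). CD8 T-like cells gave 224 and 376, a log2 ratio of 0.75 (0.66 to 0.84). The intervals of the 2 libraries did not overlap in any of these classes. Regulatory T-like cells gave 212 (175 to 255) and 523 (447 to 608), a log2 ratio of 1.30 (0.95 to 1.65), dendritic-like cells 354 and 649, a log2 ratio of 0.88 (0.58 to 1.18). Among macrophage and monocyte-like cells the levels of 353 and 543 gave 0.62 (0.52 to 0.73), or 0.53 with size factors, under the fold. In NK-like cells 324 and 486 gave a log2 ratio of 0.58 (0.33 to 0.83), just inside the 1.5-fold line. Tumour-like cells differed little, with 155 and 166 and a log2 ratio of 0.10 (0.06 to 0.13).

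Zfp36 was highest relative to vehicle in CD4 T-like cells. Its level there was 124 (114 to 135) CPM in the vehicle library and 280 (268 to 293) in the RP-6306 library, a log2 ratio of 1.17 (1.04 to 1.31). Regulatory T-like cells had 146 and 264, a log2 ratio of 0.85 (0.40 to 1.31), and CD8 T-like cells 94.1 and 159, a log2 ratio of 0.75 (0.62 to 0.90). Under the fold were B-like cells at 0.44 and macrophage and monocyte-like cells at 0.49. In NK-like cells the levels of 109 and 111 did not differ beyond counting error, and the interval of the log2 ratio ran from -0.51 to 0.51.

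Zfp36l2 was past the fold in B-like cells, and Zfp36l1 in regulatory T-like and NK-like cells. The level of Zfp36l2 was 307 (295 to 320) CPM in vehicle B-like cells and 540 (523 to 558) in RP-6306 B-like cells, a log2 ratio of 0.81 (0.74 to 0.89). In CD4 T-like and CD8 T-like cells its log2 ratios were 0.52 (0.45 to 0.60) and 0.44 (0.38 to 0.50). Zfp36l1 gave 0.57 (0.51 to 0.63) in B-like cells, just under the fold. It gave 0.62 (0.37 to 0.86) in regulatory T-like and 0.66 (0.30 to 1.02) in NK-like cells, both past it but with intervals that reach below it. With size factor scaling these last 2 ratios were 0.51 and 0.55, under the fold.

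Btg1 and Zc3h12a, the remaining 2 genes, were under the fold in all 8 classes. Btg1 had log2 ratios of 0.28 in B-like, 0.36 in CD4 T-like and 0.17 in CD8 T-like cells, and it was lower in the RP-6306 library in macrophage and monocyte-like cells (363 and 294 CPM, log2 ratio -0.30, interval -0.42 to -0.19) and in tumour-like cells (log2 ratio -0.24). The log2 ratio of Zc3h12a was at most 0.22 in size in each of the 8 classes, and its interval excluded 0 only in B-like cells (0.17) and in tumour-like cells (-0.22). The 2 BTG genes thus differed in sign in macrophage and monocyte-like and tumour-like cells, and in dendritic-like cells too, where the interval of Btg1 included 0 (-0.64 to 0.03).

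**Figure D2:**
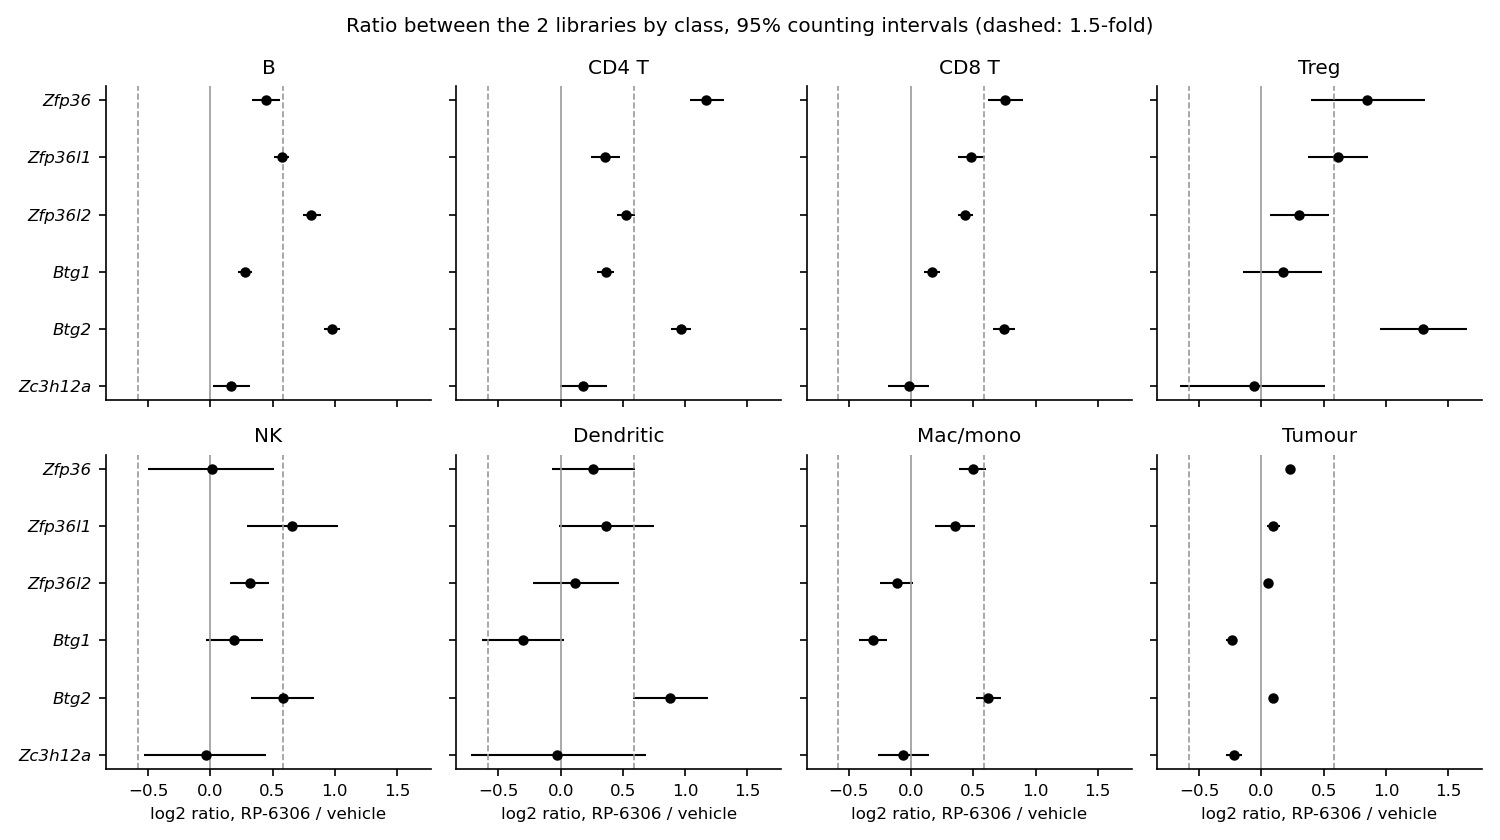
Log2 ratio of RP-6306 over vehicle for each gene in 8 classes, with 95% counting intervals, a solid line at equal levels and dashed lines at 1.5-fold. Btg2 and Zfp36 lie right of the upper dashed line in CD4 T-like cells (0.97 and 1.17), while all 6 genes lie between the dashed lines in tumour-like cells.

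The other genes of the pathway were taken from lists chosen with earlier results known. The deadenylation and decay partners (the CCR4-NOT and PAN subunits, poly(A)-binding proteins, decapping factors and XRN1) stood level: of 23 measured genes, none was past the fold in either direction in B-like, CD4 T-like, CD8 T-like or tumour-like cells, and their median log2 ratios were 0.02, 0.02, 0.03 and 0.07. Cnot1, the scaffold of the complex, was at 189 and 173 CPM in CD4 T-like cells, and Cnot7, the CAF1 deadenylase that BTG proteins bind, at 113 and 118. Among the BTG and TOB relatives, Tob1, an antiproliferative gene of resting T cells, was at 55.8 and 77.3 in CD4 T-like cells, a log2 ratio of 0.46, and no relative was past the fold in these 4 classes. Of the other RNA stability regulators, Arid5a, which protects transcripts that ZC3H12A cuts, had log2 ratios of 0.45, 0.52 and 0.41 in B-like, CD4 T-like and CD8 T-like cells, under the fold.

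The transcripts known as targets of these proteins did not lie on 1 side. Among CD4 T-like cells 2 of 15 measured targets were past the fold upward and 4 downward (3.91% and 7.01% of all genes). Their median log2 ratio was -0.18 against 0.02 for all genes. In B-like cells 0 of 17 were past it upward and 6 downward (2.29% and 7.49% of all genes), with a median of -0.43. In CD8 T-like cells it was 1 of 15 upward and 3 downward (2.53% and 5.73%), with a median of -0.23. The lower targets of these classes were led by Vegfa and Ccl2, which are secreted factors typical of tumour and myeloid cells. Vegfa in CD4 T-like cells was at 24.6 and 9.07 CPM, and Ccl2 there at 71.8 and 36.6. Free tumour RNA made up 7.89% of CD4 T-like UMIs in the vehicle library and 4.69% in the RP-6306 library, and its part in these ratios was not tested. Nfkbid, an NF-kB cofactor, was higher at 42.3 and 72.1, a log2 ratio of 0.76. In macrophage and monocyte-like cells 7 of 19 targets were past the fold upward and 1 downward (11.9% and 5.4% of all genes). Their median was 0.49 against 0.10 for all genes, led by Il6 (13.9 and 47.5) and Ccl2 (315 and 911). Tnf itself was at 37.1 and 45.5 there. The clusters that make up this class differed in size between the libraries, as given below, and their part in these target ratios was not tested.

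Genes of resting T cells were higher beside the members in part. Of the 20 quiescence genes, 3 were past the fold upward and none downward in CD4 T-like cells (3.91% and 7.01% of all genes). The median log2 ratio was 0.19. The 3 were Il7r, the receptor for the survival cytokine interleukin 7 (716 and 1332 CPM), Pik3ip1, an inhibitor of PI3 kinase (72.6 and 132), and Klf2, a factor of quiescence and lymph node homing (427 and 683). CD8 T-like cells had 4 past the fold upward (2.53% of all genes), these 3 and Ccr7 (291 and 455). In regulatory T-like cells 13 of 19 were past it upward (12.8% of all genes), with a median of 1.05. However, the clusters that make up this class differed between the libraries, as given below. Of the glucocorticoid targets, Tsc22d3, a steroid-induced leucine zipper gene, was at 181 and 265 in CD4 T-like cells, a log2 ratio of 0.55, and Fkbp5 at 40.3 and 79.2, a log2 ratio of 0.96. Cell cycle genes had a median of -0.25 in B-like, -0.10 in CD4 T-like and -0.33 in CD8 T-like cells. Of 23, 5, 7 and 7 were past the fold downward (7.49%, 7.01% and 5.73% of all genes) and none upward. Their median was 1.03 in macrophage and monocyte-like cells and 0.51 in tumour-like cells. Summed, they were at 472 and 394 CPM in CD4 T-like cells and at 2029 and 2715 in tumour-like cells. Free tumour RNA was higher in the vehicle library (7.89% and 4.69% of CD4 T-like UMIs), and its part in the lymphocyte values was not tested.

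The composition of the classes touches some of these values. Regulatory T-like cells came mostly from cluster T11 in the vehicle library (164 of 187 cells) and mostly from cluster T13 in the RP-6306 library (79 of 121). Btg2 was at 210 and 222 CPM in T11 and at 230 and 823 in T13, so the ratio of the whole class set mostly T11 cells against mostly T13 cells. The vehicle value in T13 rests on 23 cells. Within clusters of at least 50 cells per library, the values elsewhere kept their direction for the leading genes. Zfp36 had log2 ratios of 1.14, 1.32 and 0.83 in CD4 T-like clusters T1, T2 and T8, and Btg2 had 0.98, 1.05 and 0.66. In the 4 CD8 T-like clusters Zfp36 ranged from 0.46 to 1.22 and Btg2 from 0.39 to 0.89. In the macrophage and monocyte-like clusters M1, which was larger in the vehicle library (255 and 148 cells), and M2, which was larger in the RP-6306 library (142 and 202), Btg2 had 0.61 and 0.84 and Zfp36 0.39 and 0.78. For Btg1 the same 2 clusters gave 0.18 and -0.03, while the whole class gave -0.30. Cluster M5, with 36 vehicle and 111 RP-6306 cells, had lower Btg1 (197 and 151) than M1 (467 and 530).

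Tumour-like cells showed larger ratios within clusters than in the class. In cluster 3 Btg2 was at 221 and 280 CPM, a log2 ratio of 0.34 (0.30 to 0.38). In cluster 6 it was at 65.5 and 105, a log2 ratio of 0.68 (0.59 to 0.78), and in cluster 7 at 107 and 132, a log2 ratio of 0.29 (0.23 to 0.36). Each of these is above the 0.10 of the whole class. Cluster 3, where Btg2 was highest, held 1686 vehicle and only 1121 RP-6306 cells, whereas cluster 6 held 718 and 1179 and cluster 7, led by histone and mitotic genes, held 772 and 1088. Zfp36 behaved alike, with 0.43, 0.57 and 0.33 within the clusters against 0.23 for the class. Immediate early genes summed to 5637 and 4549 CPM in cluster 3 and to 2041 and 2187 in cluster 6.

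**Figure D3:**
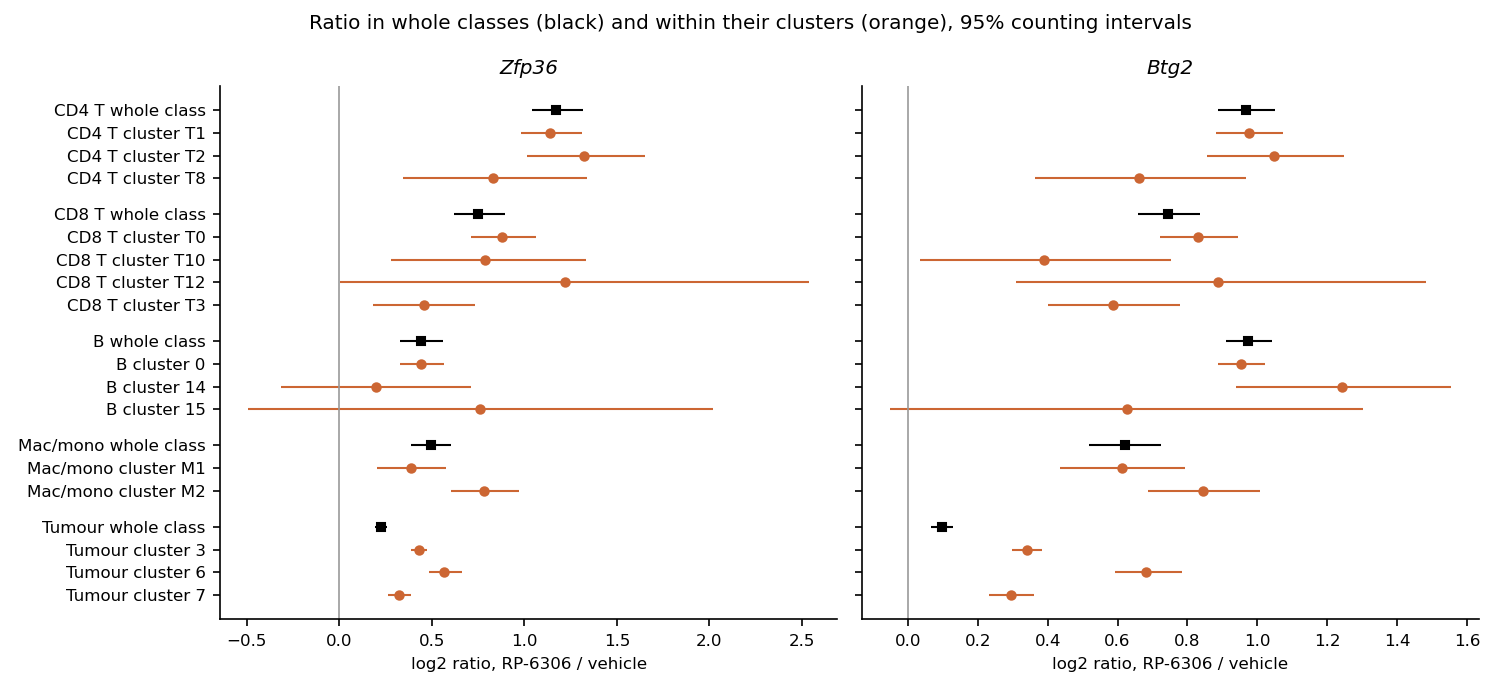
Log2 ratio of RP-6306 over vehicle for Zfp36 and Btg2 in whole classes (black squares) and within their clusters of at least 50 cells per library (orange circles), with 95% counting intervals. Tumour-like clusters 3, 6 and 7 (0.34, 0.68 and 0.29 for Btg2) all lie right of their class (0.10).

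The members were then set against dissociation stress, for which 12 immediate early genes and 10 heat shock genes were summed, with none of the 6 members among them. The immediate early genes summed to 2290 CPM in vehicle and 2883 in RP-6306 CD4 T-like cells, in CD8 T-like cells to 1761 and 1997, in B-like cells to 2151 and 2428 and in regulatory T-like cells to 2369 and 3002. NK-like cells were level at 2459 and 2436, macrophage and monocyte-like cells had 3439 and 4123, and tumour-like cells went the other way with 4471 and 3216. Dendritic-like cells had 2658 and 2840. Neutrophil-like cells, where Zfp36 and Btg2 were highest, also had the highest immediate early sums, at 8269 and 10674. Immediate early sums and most members thus stood higher in the same library in T and B cells. The median log2 ratio of the 12 immediate early genes was 0.08 in B-like, 0.22 in CD4 T-like, 0.007 in CD8 T-like and 0.22 in regulatory T-like cells. The part of stress in the members' ratios was not tested as such. Heat shock genes were level in CD4 T-like cells (3773 and 3736) and B-like cells (3233 and 3064), and higher with RP-6306 in regulatory T-like (3467 and 4066), dendritic-like (3674 and 5969) and macrophage and monocyte-like cells (5243 and 7213). Btg2 was past the fold in these 3 classes, and also in B-like, CD4 T-like and CD8 T-like cells, the last with heat shock sums of 3589 and 3700. Tumour-like cells had heat shock sums of 9577 and 10921 and a Btg2 log2 ratio of 0.10. The part of heat shock in the Btg2 ratios was not tested. In neutrophil-like cells the heat shock sum was lower with RP-6306 (4749 and 2262).

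The immediate early list was split within itself. In CD4 T-like cells Junb, an AP-1 subunit, was at 721 and 1135 CPM, a log2 ratio of 0.65, and Ier2 at 200 and 337, a log2 ratio of 0.75. Against these, Atf3 was at 23.7 and 8.35, Fosb at 44.1 and 18.6 and Egr1 at 79.7 and 48.1, all lower in the RP-6306 library past 1.5-fold. The 3 lower genes were also lower in RP-6306 tumour-like cells, where Fosb was at 506 and 238, and free tumour RNA was higher in the vehicle library. Its part in the leukocyte values of these genes was not tested. Dusp1, a phosphatase induced with Zfp36 by many stimuli, was at 80.2 and 106, a log2 ratio of 0.40.

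Cells were next ranked by their own immediate early UMIs. Cells with at least 2000 UMIs were thinned to 2000 and divided into low, middle and high tertiles at cut points common to both libraries. In tumour-like cells of the vehicle library Zfp36 was at 46.3 CPM in the low, 142 in the middle and 226 in the high tertile, a log2 difference from low to high of 2.27 (1.95 to 2.65). In the RP-6306 library it was at 75.0, 197 and 401, a log2 difference of 2.40 (2.19 to 2.65). Btg2 gave 49.8, 149 and 270 in the vehicle library and 74.2, 210 and 358 in the RP-6306 library, with log2 differences of 2.42 and 2.25. Both genes were thus graded with immediate early UMIs in tumour-like cells of either library. Zc3h12a (1.48 and 1.14) and Btg1 (1.04 and 0.81) were graded less, and Zfp36l2 hardly (0.28 and 0.15).

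In most leukocyte classes the gradient was shallower. Macrophage and monocyte-like cells gave log2 differences between the high and low tertiles of 1.29 and 1.65 for Zfp36 and of 0.66 and 0.94 for Btg2. CD4 T-like cells gave 0.67 and 0.53 for Zfp36 and 0.18 and 0.46 for Btg2, and B-like cells 0.53 and 0.64 for Zfp36 and 0.35 and 0.58 for Btg2. Regulatory T-like cells were nearer to tumour-like cells for Zfp36, with 1.94 (0.76 to 3.26) and 2.25 (0.53 to 4.65), where the intervals are wide and the RP-6306 low tertile holds 19 cells. Dendritic-like cells were so for Btg2, with 2.64 (0.98 to 4.72) and 1.64 (0.74 to 2.64) on 10 to 23 cells in each low or high tertile. Btg1 was flat in B-like, CD4 T-like and CD8 T-like cells, with differences from 0.01 to 0.09, all with intervals that include 0. Ranking by heat shock genes gave no gradient of this kind: in CD4 T-like cells the differences were 0.16 and 0.15 for Zfp36 and -0.04 and 0.06 for Btg2, and in tumour-like cells they were -0.07 and -0.52 for Zfp36 and -0.44 and -0.52 for Btg2. From cell to cell the Spearman correlation of Zfp36 with immediate early UMIs was 0.26 and 0.34 in tumour-like, 0.25 and 0.38 in macrophage and monocyte-like and 0.25 and 0.36 in regulatory T-like cells, and 0.08 and 0.13 in CD4 T-like cells. That of Btg2 was 0.29 and 0.31 in tumour-like, 0.53 and 0.38 in dendritic-like and 0.08 and 0.13 in CD4 T-like cells, all at 2000 UMIs per cell. Over 23 clusters Zfp36 and Btg2 parted: the correlation of the level with the immediate early sum was 0.68 in the vehicle and 0.83 in the RP-6306 library for Zfp36, but 0.21 and 0.34 for Btg2 and -0.36 and 0.02 for Btg1. With the sum of the whole stress list it was 0.51 and 0.54 for Zfp36 and -0.02 and -0.20 for Btg2. Clusters of a library share its depth and free RNA.

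**Figure D4:**
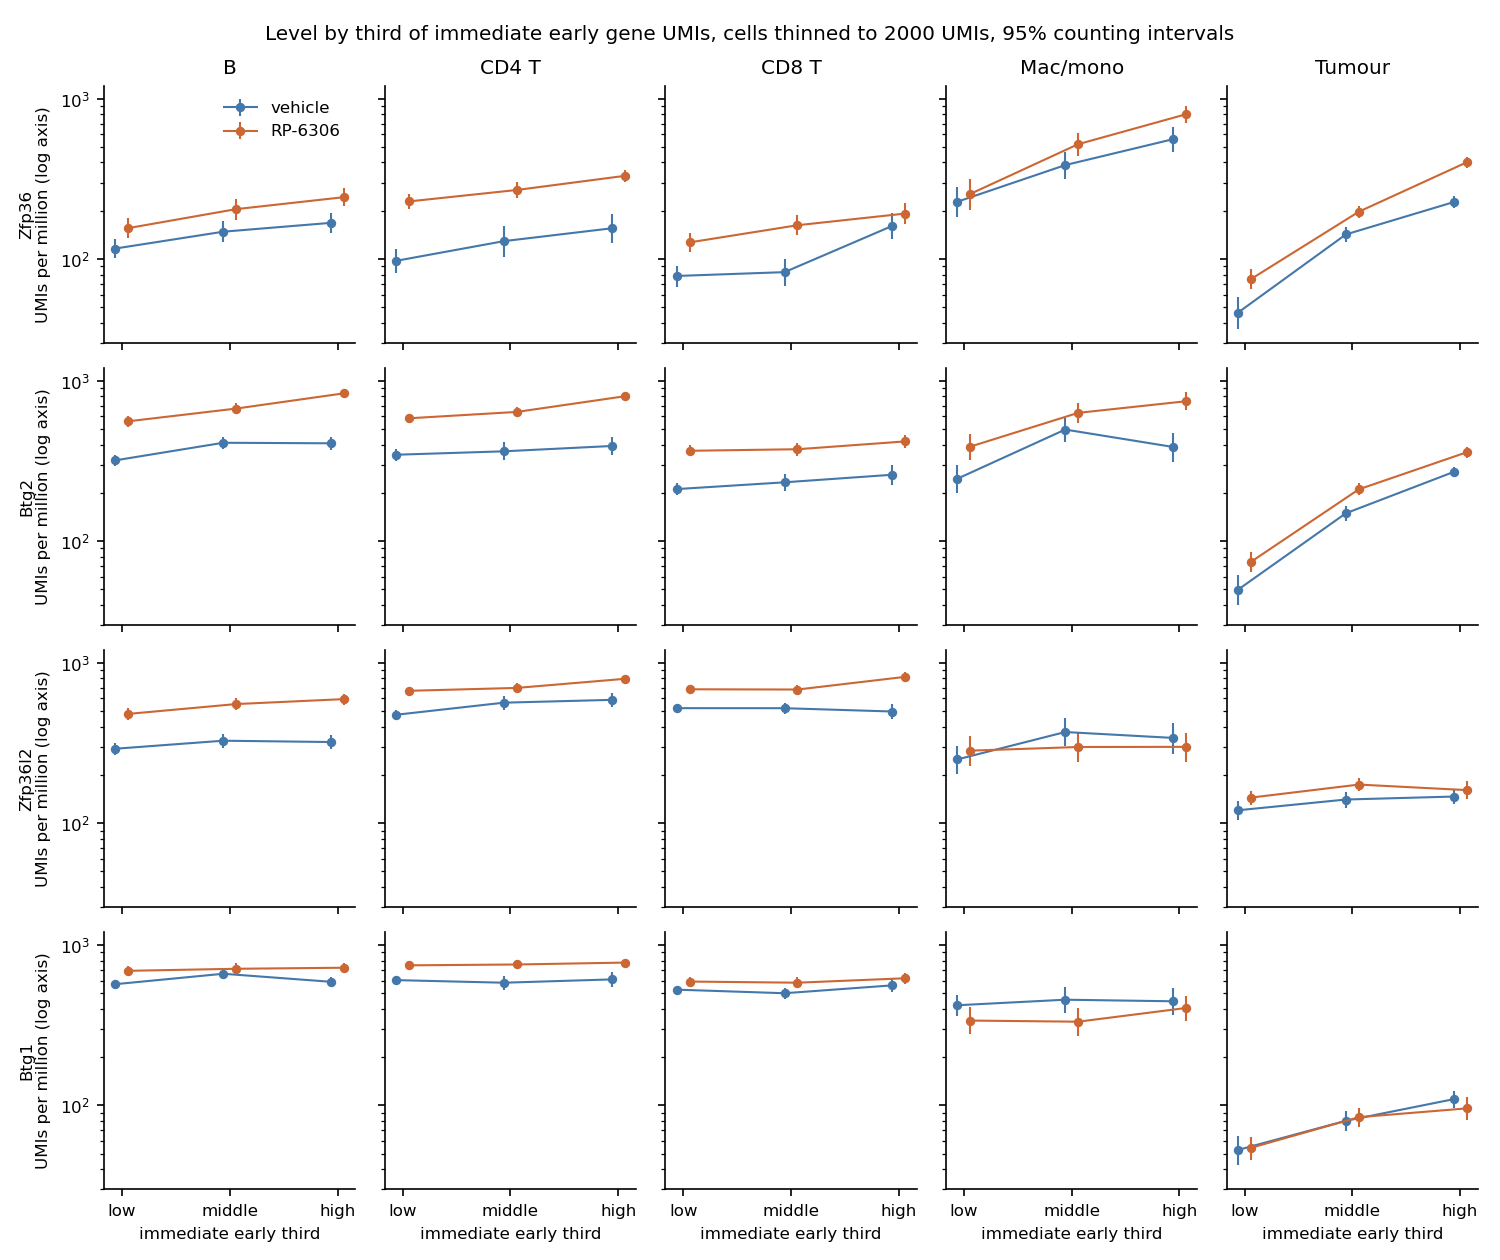
Level of Zfp36, Btg2, Zfp36l2 and Btg1 (CPM, log axis) in low, middle and high tertiles of immediate early UMIs for 5 classes, with 1 line per library (blue vehicle, orange RP-6306) and 95% counting intervals, cells thinned to 2000 UMIs. Zfp36 and Btg2 climb steeply in tumour-like cells (Zfp36 from 46.3 to 226 in the vehicle library), Btg1 is flat in B and T cells, and the RP-6306 lines for Zfp36 and Btg2 lie above the vehicle lines in each class and tertile shown.

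Ratios between the libraries were also computed within each immediate early tertile. Zfp36 in CD4 T-like cells had log2 ratios of 1.22 (0.95 to 1.52), 1.05 (0.71 to 1.43) and 1.08 (0.76 to 1.42) in the low, middle and high tertiles. The whole class gave 1.22 thinned in the same way and 1.17 unthinned. Btg2 there had 0.75, 0.81 and 1.03, against 0.91 thinned. Of B-like cells, thinning kept 2123 of 3473 in the vehicle and 1553 of 3454 in the RP-6306 library. In B-like cells Btg2 had 0.81, 0.71 and 1.03, against 0.88 for the class thinned and 0.97 unthinned. Zfp36l2 had 0.72, 0.76 and 0.89 there, against 0.79 thinned and 0.81 unthinned. Both genes were higher in the RP-6306 library within each immediate early tertile of B-like cells. A tertile spans a range of immediate early levels and leaves out heat shock, and the part of stress in these ratios was not tested. In CD8 T-like cells Btg2 had 0.79, 0.68 and 0.69, while Zfp36 had 0.69, 0.96 and 0.25 (-0.08 to 0.60), the last under the fold. In regulatory T-like cells, with 20 to 64 cells per tertile and library, Zfp36 was lower in the RP-6306 library in the low tertile of the whole stress list (log2 ratio -0.49, interval -2.54 to 1.16), so its ratio in that class is not resolved at this depth.

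In tumour-like cells the comparison within immediate early tertiles gave larger ratios for Zfp36 and Btg2 than the whole class. Zfp36 had 0.68 (0.32 to 1.09), 0.47 (0.26 to 0.68) and 0.82 (0.66 to 0.99) in the low, middle and high tertiles, against 0.39 for the class thinned in the same way and 0.23 unthinned. Btg2 had 0.57 (0.21 to 0.96), 0.49 (0.29 to 0.70) and 0.41 (0.24 to 0.57), against 0.17 thinned and 0.10 unthinned. The cells were spread unequally over the tertiles: 864, 1100 and 1228 vehicle cells against 1354, 1258 and 774 RP-6306 cells. Tertiles of the whole stress list, heat shock genes included, gave no such gap, with 0.36, 0.38 and 0.43 for Zfp36 and 0.20, 0.09 and 0.24 for Btg2. Btg1 stayed near level in the immediate early tertiles, with 0.04, 0.07 and -0.19. The other members also passed their thinned class values in some immediate early tertile. Zfp36l1 had 0.61 in the high tertile but -0.003 in the middle one, against 0.20. Zfp36l2 had 0.31 in the middle tertile against 0.21, and Zc3h12a 0.34 in the low tertile against -0.19. Zfp36 and Btg2 therefore were higher in RP-6306 tumour-like cells within each immediate early tertile and each of the 3 large clusters, by more than when the class was summed.

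Genes with the most similar pattern were sought among 6095 genes, by Pearson correlation of log2 levels over 16 points (8 classes in 2 libraries, which share libraries and depth). For Zfp36 the closest was Pstpip2 (0.89), an adaptor of myeloid cells, followed by Mcl1 (0.88), a survival factor of short half-life. Zfp36l1 was closest to Phtf2 (0.92) and also near Zc3h12d (0.90), a relative of Zc3h12a. Zfp36l2 was closest to Nsd3 (0.96), Btg1 to Kmt2c (0.99), Btg2 to Nup98 (0.85) and Zc3h12a to Rgs2 (0.96). Among the members themselves, Btg1 and Zc3h12a were closest (0.80), and Zfp36 and Zfp36l2 were least alike (-0.32).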

How the data were processed

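Single-cell RNA was measured with the SeekOne DD 3' kit in 1 vehicle and 1 RP-6306 library. Values deposited by the authors are counts, as UMIs of each gene in each barcode without normalization, 135415063 UMIs over 17313 vehicle barcodes and 158073632 over 15909 RP-6306 barcodes. Cell Ranger 2.1.1 and mm10 are named, without roles, in the submitters' processing notes. The barcode calling and annotation are not given in the sources used here.

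The rest was computed here (Python 3.11.15, scanpy 1.11.5, leidenalg 0.10.2, scipy 1.17.1). Cells needed at least 500 UMIs, 300 genes and at most 15% mitochondrial UMIs. Scrublet's automatic threshold marked 1 vehicle and 0 RP-6306 barcodes and so had not worked, and the top 6% of scores per library (1026 and 952 barcodes) were removed instead. Both libraries were clustered together without integration (2000 variable genes, 30 components, 15 neighbours, Leiden resolution 1), and T, NK and myeloid clusters again. Names came from marker lists by score cuts that were set after seeing the cluster tables. A cluster was left unnamed where markers of another class outnumbered its own, where it mixed T and B cell markers or where it fell under the cuts. UMIs were summed per class and library. Ratios used a pseudocount of 1 CPM, classes of at least 50 cells in each library and genes of at least 20 UMIs. Ratios between libraries within a tertile needed 20 cells per library. Intervals are exact 95% Poisson or conditional binomial ones, for counting error only. The ratio step was checked on simulated data. The 6 genes and all gene lists were chosen with earlier results of these data known. Named beside the members were the 5 most similar genes each, of which the closest are printed, and up to 4 genes per list and class with the largest ratio. Cnot1, Cnot7, Tnf, Junb and Dusp1 fell outside this rule where printed and were chosen after their values were seen.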

Additional observations from a re-analysis of the deposited data

How the results depend on the processing

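No paired analysis was possible because each treatment had 1 library, and the shared number 1 in their names pairs nothing. For single genes, 468 ratios were computed under other settings (scaling, thinning to 2000 UMIs, means over cells, pseudocounts of 0.1 and 10, at least 1000 UMIs, no doublet removal, clustering without the members and stress genes, the highest cell left out, free tumour RNA subtracted). Of these, 452 kept their direction and 456 their side of the 1.5-fold line. The calls that changed were Zfp36l1 and Zfp36 in regulatory T-like cells (0.39 for Zfp36 after thinning), Zfp36l1 and Btg2 in NK-like, Btg2 in macrophage and monocyte-like (0.53 with size factors), Zfp36l2 in dendritic-like and Zfp36l1 in B-like cells. Under these settings all CD4 T-like and CD8 T-like calls were kept. Within tertiles and clusters, CD8 T-like Zfp36 fell to 0.25 (high immediate early tertile) and Btg2 to 0.39 (cluster T10) at the lowest. Zfp36 in regulatory T-like cells reversed in the low tertile of the stress list (-0.49) and in the middle immediate early tertile (-0.10), which rest on 20 to 64 cells. Zfp36 in macrophage and monocyte-like cells, under the fold at 0.49, was -0.31 in the low stress tertile and 0.95 in the high one. Several other ratios under the fold also changed sign in some tertile. The immediate early tertiles were added after seeing the data, and the cause of these moves was not tested.

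The median log2 ratio of the 6 genes moved as follows. With size factors it was 0.055 in macrophage and monocyte-like cells (0.15 with totals) and 0.15 in NK-like cells (0.25 with totals). In tumour-like cells it was 0.18 after thinning, 0.23, 0.15 and 0.12 in the low, middle and high stress tertiles and 0.30, 0.19 and 0.27 in the immediate early ones. In B-like cells it was 0.38 and 0.68 in the low and high stress tertiles. In CD8 T-like cells it was 0.35 and 0.55 there and 0.36 in the middle immediate early tertile. In macrophage and monocyte-like cells it was -0.057 and 0.37 in the low and high stress tertiles and -0.13 and 0.24 in the middle and high immediate early ones. In NK-like cells it was 0.042 in the low stress tertile, in CD4 T-like cells 0.34 in the middle immediate early tertile, and in regulatory T-like cells 0.025 in the high stress tertile and 0.76 and 0.22 in the middle and high immediate early ones.

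The count of genes past 1.5-fold in either direction, without a UMI minimum and at 2-fold, was 1159, 1759 and 297 in B-like, 1213, 2040 and 278 in CD4 T-like, 949, 1601 and 205 in CD8 T-like and 1541, 6945 and 458 in regulatory T-like cells. It was 1394, 6678 and 392 in NK-like, 1737, 6884 and 601 in dendritic-like and 1804, 3457 and 482 in macrophage and monocyte-like cells. In tumour-like cells it was 451 and, at 2-fold, 58. Depth limits regulatory T-like, NK-like, dendritic-like and neutrophil-like cells most, where a member has as few as 19 UMIs in a library.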
